A study of Mus musculus with 6 samples.

Results

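Type I interferon response genes are the genes that cells switch on when interferon alpha or beta binds its receptor. A list of 31 of them was followed through single cells of the mouse lung. Members were taken by gene symbol from the 32285 features of the count tables, which hold 30 of the 31 (Mx1 is not listed). Single-cell RNA sequencing was run on 6 libraries of sorted non-haematopoietic niche cells. Control 1, 2 and 3 came from normal lungs, and AML 1, 2 and 3 from lungs infiltrated by a Trp53 R172H/Δ acute myeloid leukaemia (AML), an acute cancer of myeloid blood cells. Lungs were digested with Liberase and DNaseI. The 3 AML libraries also received GFP-positive leukaemia cells, sorted and added back at 20% of the suspension, so their share of blood cells was set by mixing. The labels give no age, sex, strain or infiltration level, and do not say whether each library came from 1 mouse or from separate mice, and p-values therefore reflect only how the libraries vary, which may be technical.

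In the textbook pathway, the receptor chains Ifnar1 and Ifnar2 activate the kinases Jak1 and Tyk2. A complex that holds Stat2 and Irf9 then binds the interferon-stimulated response element, whose core is a pair of GAAA runs with 2 free bases between them (TTTC runs on the other strand). The genes reached in this way encode sensors and binders of foreign RNA, the ubiquitin-like protein Isg15 with the enzymes that attach and remove it, and proteins that hold viruses back at membranes. Endothelial cells of the lung are known to carry such transcripts at a basal level without infection.

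The core was searched on both strands in RefSeq promoters of the GRCm38.p6 build, from 250 bases before to 50 after the start site. Of the 22 members matched in that table, 11 (50%) held at least 1 match, against 3.99% of all 27025 genes there. The windows below show the element, in capitals, in members of different roles that recur in the results. They are read along the gene's strand at chr4:156200866-156200905 (Isg15, minus strand), chr19:34640789-34640828 (Ifit1, plus strand), chr10:128270261-128270300 (Stat2, plus strand), chr19:34583358-34583397 (Ifit3, plus strand) and chr19:34607754-34607793 (Ifit3b, plus strand).
Isg15: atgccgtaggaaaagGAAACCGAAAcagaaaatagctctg
Ifit1: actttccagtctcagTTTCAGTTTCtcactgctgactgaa
Stat2: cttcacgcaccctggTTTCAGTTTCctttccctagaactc
Ifit3: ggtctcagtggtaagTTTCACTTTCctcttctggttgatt
Ifit3b: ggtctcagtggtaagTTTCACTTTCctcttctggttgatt
Isg15 has 3 overlapping matches in a run of GAAA repeats, and the windows of Ifit3 and Ifit3b are the same letter for letter. These copies sit near each other on chromosome 19, and reads of near-identical copies can be split between them, so their counts are uncertain. The same holds for Oas1a, which has close paralogs. Dtx3l and Parp9 lie on opposite strands of chromosome 16 and overlap at their start sites, away from the 3' ends that the assay reads. No match was found in the windows of Ifi44, Oasl2, Herc6 or Xaf1, which says only that these letters are not in this stretch.

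After filters 23745 cells were kept, 1718, 3673 and 3444 in Control 1, 2 and 3 and 4496, 4624 and 5790 in AML 1, 2 and 3. The 3 Control libraries held fewer cells at a greater depth, with medians of 4794.5 to 8323.5 unique molecular identifiers (UMIs, each a counted transcript molecule) per cell against 3723 to 4685.5. In each of the 10 classes tested, every Control library also had a higher median of UMIs per cell than every AML library. Pairs of libraries shared 1 to 24 cell barcodes, where 1.37 to 5.82 would be expected from the length of the barcode list. AML 1 and AML 2 shared 24 (4.51 expected), and AML 2 and AML 3 shared 19 (5.82 expected). The cause was not tested. Cell classes were rebuilt from markers, with the members and the other pathway genes kept out of the clustering, and each class name stands for a likeness to that cell type by markers. Levels are in CPM, the UMIs of a gene per fixed total of UMIs in that class and library, from a 3' assay that is not divided by gene length.

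Among the 10 tested classes, most members were highest in endothelial cells. In the Controls, 15 of the 30 had their highest mean level among the 10 classes in general capillary cells, the endothelial cells of the exchange capillaries, 7 in venous, 2 in arterial and 1 in aerocyte cells, the large capillary cells of gas exchange. The summed level of the 30 members in general capillary cells was 1839.6, 2145.3 and 2118.6 CPM in Control 1, 2 and 3 and 1548.1, 853.0 and 992.1 CPM in AML 1, 2 and 3. Every AML value there was below every Control value. Alveolar type 2 cells, the surfactant producers, held far less, between 148.5 and 258 CPM over the 6 libraries. The leukaemia-like blood progenitors of the AML libraries stood at 363.3, 328.8 and 318.6 CPM. Of the untested classes, 2 exceeded every general capillary library in a library with at least 20 cells. Mesothelial cells of AML 1 summed to 4880.7 CPM (22 cells). Monocytes or macrophages of Control 3 summed to 2184.7 CPM (20 cells), against 1280.0, 623.8 and 446.4 CPM in AML 1, 2 and 3.

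Among the tested classes, a few members had their highest level outside the endothelium. Usp18, the protease that removes Isg15 and damps the receptor, averaged 136.761 CPM in ciliated cells of the Controls, with 133.959, 121.519 and 154.804 CPM in Control 1, 2 and 3. In AML 1, 2 and 3 the ciliated cells had 188.111, 79.126 and 136.633 CPM of Usp18, so the groups overlapped. Ifi35 was also highest in ciliated cells, at 213.05 CPM on average over the Controls. Ifi27l2a, a small membrane protein gene, was highest in alveolar fibroblasts at 357.051 CPM, with a wide spread of 138.83 to 512.315 CPM between the Controls, and at most 4.34 CPM in any library of general capillary cells.

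**Figure D1:**
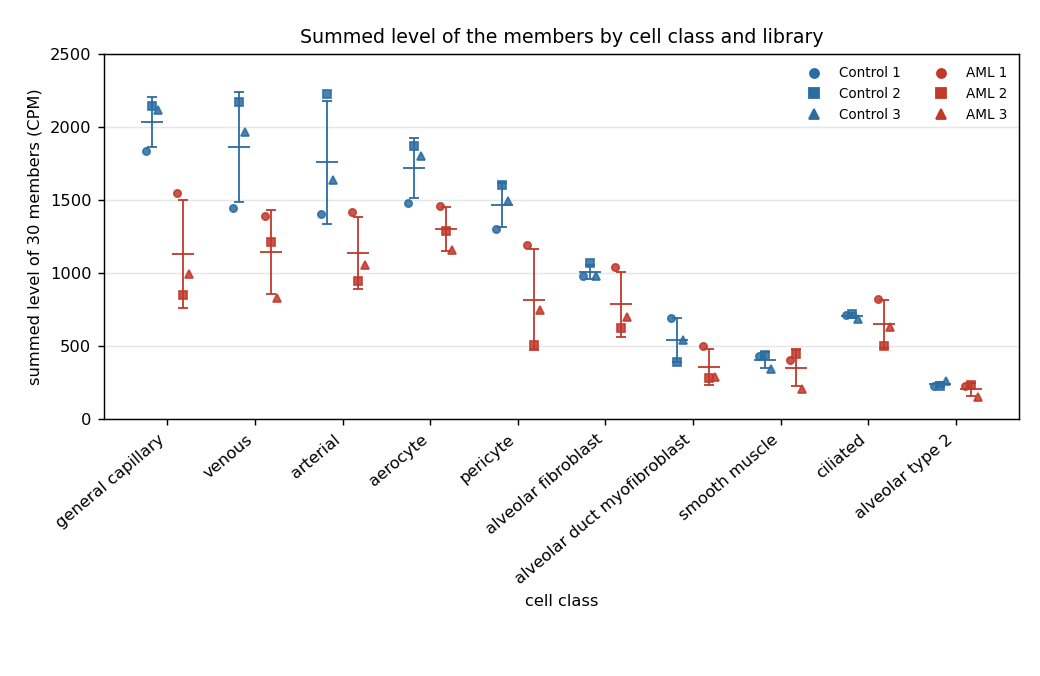
Summed level of the 30 members in CPM (y axis) in each tested cell class (x axis); each point is 1 library, and bars show the mean and SD of the 3 libraries of a group. The AML points lie below the Control points in general capillary cells, and AML 1 is the highest AML library in 8 of the 10 classes.

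The libraries kept a similar order from class to class. AML 1 had the highest summed level of the AML libraries in 8 of 10 classes and the lowest in 0, and Control 1 had the lowest of the Controls in 7. The AML mean was below the Control mean in 10 of 10 classes, while all 3 AML sums were below all 3 Control sums in 4. Classes of the same libraries are not independent of each other.

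General capillary cells had the most called members: 6 fell in AML-infiltrated lungs, and none rose. The members that fell were Ifi44, Rtp4, Oasl2, Herc6, Isg15 and Ifit1. Of 30 members tested, 6 were lower at an adjusted p under 0.05 (edgeR quasi-likelihood test, Benjamini-Hochberg over 11417 genes), against a background of 1.38% of all genes called lower. All 30 had a log2 change below 0, with a median of -0.98, where 49.9% of all genes were below 0. In 20 of the 30 the 3 AML values lay below the 3 Control values, which 15.2% of all genes did.

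The counts rest on single libraries. Without AML 1 23 members were called (5.79% of all genes), and without Control 1 it was 0, with 0 of all 11586 genes called lower. Without Control 2, Control 3, AML 2 or AML 3 it was 1 each time, Ifi44 (0.510%, 0.112%, 0.269% and 0.0344% of all genes). DESeq2 called 17 members (4.0% of all genes) and edgeR without a low-count filter 14 (2.15%). With doublets kept 4 were called (142 of 11484 genes called lower), without Herc6 and Oasl2. All 6 members kept a negative log2 change when any 1 library was left out.

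Among membrane and other effectors, Ifi44, an interferon-induced protein of the cytoplasm (chr3:151730922-151749960, minus strand, mm10), had 30.03, 34.8 and 37.4 CPM in Control 1, 2 and 3 and 10.4, 6.69 and 6.16 CPM in AML 1, 2 and 3. Every AML library was below every Control, and the gap to the lowest Control was larger than the spread within either group. Ifi44 fell 4.38-fold (log2 change -2.13 ± 0.22 SE, edgeR adjusted p = 0.00618). Rtp4, a chaperone of receptors that also binds viral RNA (chr16:23520291-23614222, plus strand), had 60.3, 93.2 and 81.6 CPM in the 3 Controls against 46.4, 23.0 and 23.4 CPM in the AML libraries. Rtp4 fell by 1.34 on the log2 scale (± 0.28 SE, edgeR adjusted p = 0.0403), and AML 1 stood nearest to the Controls.

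The most abundant member, Bst2, which tethers virus particles to the cell surface, did not pass. Its level was 428, 679 and 706 CPM in the 3 Controls against 463, 269 and 327 CPM in the AML libraries, and AML 1 lay above Control 1 (log2 change -0.78, edgeR adjusted p = 0.129). Xaf1, which favours cell death, had 101, 162 and 149 CPM against 98.5, 47.9 and 56.7 CPM, with no overlap but no call (log2 change -1.02, edgeR adjusted p = 0.0794). Cmpk2, a nucleotide kinase of the mitochondrion, had 32.1, 35.8 and 38.6 CPM against 24.2, 8.96 and 8.35 CPM (edgeR adjusted p = 0.0773). In both genes the low values came from AML 2 and AML 3. Ifi35 stood apart from the rest of the list with 76.3, 118 and 118 CPM against 111, 94.0 and 97.2 CPM, a log2 change of -0.05 ± 0.20 SE (edgeR adjusted p = 0.903), and turned to 0.05 without Control 2 or without Control 3. Of the 9 members of this role, Ifi44 and Rtp4 fell and the median log2 change was -0.78.

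In the Isg15 system both the modifier and its ligase fell. Isg15, a ubiquitin-like protein joined to other proteins (chr4:156199424-156200818, minus strand), had 63.0, 96.6 and 79.4 CPM in the 3 Controls against 48.9, 29.0 and 36.4 CPM in the AML libraries. The groups did not overlap, and Isg15 fell by 1.06 on the log2 scale (± 0.23 SE, edgeR adjusted p = 0.0414). Herc6, the main ligase for Isg15 in the mouse (chr6:57581000-57664632, plus strand), had 80.6, 49.7 and 48.4 CPM in the 3 Controls against 32.9, 22.6 and 19.3 CPM in the AML libraries. Here Control 1 was the highest library, unlike in Isg15, Rtp4 and Bst2. Herc6 fell by 1.25 on the log2 scale (± 0.26 SE, edgeR adjusted p = 0.0377).

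The other 5 members of this role did not pass. Parp14, an ADP-ribosyltransferase, had 158, 137 and 133 CPM against 110, 62.2 and 59.4 CPM (log2 change -0.88, edgeR adjusted p = 0.0776). Trim30a, a ubiquitin ligase family member, had 90.9, 79.2 and 78.3 CPM against 66.1, 50.1 and 46.4 CPM (log2 change -0.61, edgeR adjusted p = 0.0936). Neither gene overlapped between the groups. Usp18 had 17.8, 23.4 and 17.5 CPM against 15.2, 6.94 and 7.26 CPM. The median log2 change of the 7 members of this role was -0.97.

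Of 11 RNA sensors and RNA-binding effectors, Oasl2 and Ifit1 fell, and the median log2 change was -1.07. Oasl2, an oligoadenylate synthetase-like protein (chr5:114896936-114912234, plus strand), had 58.4, 65.7 and 60.4 CPM in the 3 Controls against 39.4, 16.9 and 18.5 CPM in the AML libraries, and fell by 1.30 on the log2 scale (± 0.29 SE, edgeR adjusted p = 0.0459). Ifit1, which binds RNA that lacks the cap marks of the cell's own messengers (chr19:34640871-34650009, plus strand), had 35.4, 56.0 and 49.4 CPM against 26.4, 20.1 and 21.5 CPM, and fell by 1.05 on the log2 scale (± 0.20 SE, edgeR adjusted p = 0.0346). The groups were apart in both genes. Ifit3b was low, at 8.20, 17.995 and 13.3 CPM against 7.18, 3.28 and 2.19 CPM, and did not pass (log2 change -1.64, edgeR adjusted p = 0.066). Of the other 8, which did not pass either, Ifih1, the sensor of long double-stranded RNA, had 57.3, 57.0 and 59.0 CPM against 46.3, 28.8 and 31.1 CPM.

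None of the 3 transcription factors on the list passed in this class, and their median log2 change was -0.76. Stat2 had 74.6, 52.9 and 55.0 CPM against 40.7, 24.2 and 26.3 CPM (log2 change -0.998, edgeR adjusted p = 0.0507). Irf9, its DNA-binding partner, had 74.4, 90.5 and 85.2 CPM against 70.5, 37.0 and 40.3 CPM (log2 change -0.76, edgeR adjusted p = 0.110). AML 1 was the AML library nearest to the Controls in both. Irf7, the factor that amplifies interferon production, was lower in level, at 14.0, 22.8 and 23.4 CPM against 15.5, 13.2 and 11.4 CPM, and overlapped.

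**Figure D2:**
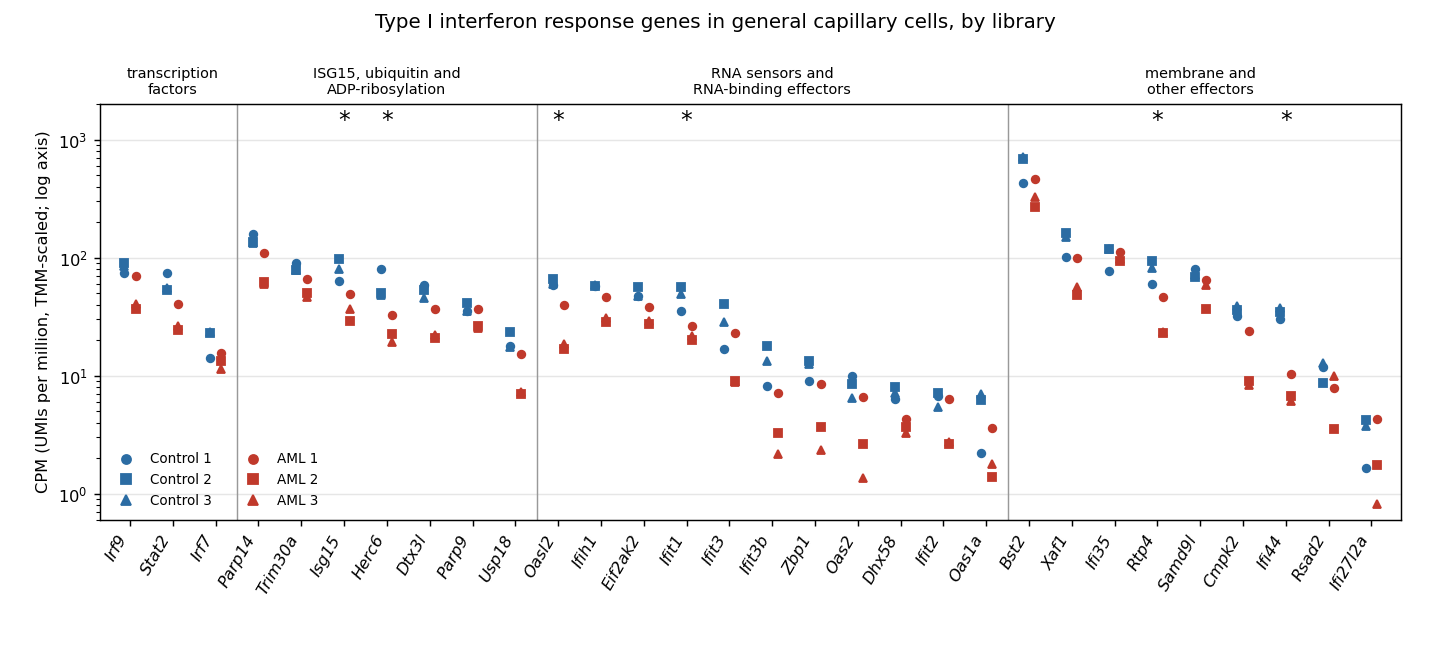
Level of each member in general capillary cells in CPM after TMM scaling (y axis, log scale), ordered by role and level (x axis); each point is 1 library, blue for Control and red for AML, and asterisks mark the 6 members with an edgeR adjusted p under 0.05. The AML points lie below the Control points in 20 of the 30 members, and AML 1 is the highest AML point in each of the 6 marked members.

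The mix of cells within the class differed between the groups as well. General capillary cells formed clusters 0, 1 and 2, and cluster 0 held 95.24% of the Control cells of the class and 16.84% of its AML cells. By library, it held 921 of 1938 cells of the class in AML 1, 27 of 1903 in AML 2 and 74 of 2228 in AML 3. The part of this mix in the order of the AML libraries was not tested. Within cluster 0 the summed member level was 1842.5, 2177.8 and 2144.9 CPM in Control 1, 2 and 3 and 1689.3, 1298.3 and 1347.2 CPM in AML 1, 2 and 3, the last 2 from 27 and 74 cells. The groups stayed apart there, but closer. Iigp1 and Gbp4, which were not kept out of the clustering, were among the top genes of cluster 0. Both belong to families also induced by interferon gamma, so cluster 0 may be set in part by such genes. Tested in cluster 0 alone, a comparison added after seeing the data, 28 of 30 members were below 0 with a median log2 change of -0.52, and 1, Ifi44, was called (0.609% of all genes). Cluster 2, with 38.57% of the AML cells of the class and 4.42% of its Control cells, had 1599.1 and 1392.3 CPM in Control 2 and 3 (95 and 51 cells) against 1420.9, 962.8 and 1006.0 CPM in the AML libraries. There AML 1 lay above Control 3, so the groups overlapped. Cluster 1, nearly all AML cells, stood at 1307.8, 843.2 and 945.5 CPM in AML 1, 2 and 3. Clusters 3 (few UMIs) and 11 (led by Esm1) also had general capillary as best match but were left unnamed, outside the class. They held 612 and 483 Control cells against 904 and 190 AML cells. With both taken in, also tried after seeing the data, the same 6 members were called (185 of 11529 genes called lower). All 30 members were below 0 there.

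Markers of other cells moved with the groups in this class. The 7 venous markers summed to 231.59 to 293.66 CPM in the 3 Controls against 483.96 to 536.26 CPM in the AML libraries (6 of 7 higher), and the 8 alveolar type 1 markers to 1282.94 to 1406.44 and 1891.25 to 2654.47 CPM (6 of 8 higher). The 4 erythroid markers summed to 24.46 to 57.56 and 5.41 to 9.25 CPM (0 of 4 higher), and the 9 blood progenitor or leukaemia markers, among them the capillary marker Kit, to 1129.24 to 1321.63 and 645.8 to 1104.29 CPM (5 of 9 higher). The 6 neutrophil markers summed to 0.15 to 2.63 and 3.34 to 12.17 CPM (6 of 6 higher), and the 8 alveolar fibroblast markers to 45.09 to 76.19 and 28.77 to 40.76 CPM (3 of 8 higher). The sum of the 11 monocyte or macrophage markers, at 50.24 to 80.49 and 72.36 to 74.48 CPM, overlapped, and Mpo, a marker of myeloid progenitors, was at 0 in all 6 libraries. The class's own 8 markers summed to 8599.38 to 9036.97 and 8852.33 to 10268.2 CPM. The part of these shifts, and of the depth per cell, in the member differences was not tested.

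Arterial and venous cells each had members that fell, again with Ifi44 first. In arterial cells 3 of 18 tested members were called lower (0.472% of all genes), all 18 were below 0, and the median log2 change was -0.84. In 12 of them the 3 AML values lay below the 3 Control values (8.99% of all genes). The low-count filter can be passed on the Controls alone, which favours members that are high there. Without it 28 of 30 members were below 0 (51.2% of all genes). Ifi44 had 34.0, 38.3 and 25.8 CPM in the 3 Controls against 5.36, 6.07 and 4.27 CPM in the AML libraries, and fell 6.06-fold (log2 change -2.60 ± 0.51 SE, edgeR adjusted p = 0.0214). Here AML 1 was as low as AML 2 and AML 3. These AML values rest on few UMIs, from 81, 106 and 117 cells, so the fold and the order of the AML libraries are uncertain. In AML 2, Oasl2 and Cmpk2 read the same 6.07 CPM. Xaf1 (chr11:72301629-72313733, plus strand) had 62.1, 137 and 115 CPM against 37.5, 26.3 and 27.7 CPM and fell by 1.79 on the log2 scale (± 0.34 SE, edgeR adjusted p = 0.0174). Oasl2 had 34.0, 38.3 and 47.0 CPM against 13.4, 6.07 and 12.8 CPM and fell by 1.88 on the log2 scale (± 0.42 SE, edgeR adjusted p = 0.0387). The groups were apart in all 3 genes. Cmpk2, at 26.0, 38.3 and 23.5 CPM against 8.04, 6.07 and 8.53 CPM, was also apart and did not pass (edgeR adjusted p = 0.0699). In this class the 8 alveolar fibroblast markers summed to 83.18 to 123.48 CPM in the 3 Controls against 51.97 to 80.17 CPM in the AML libraries, and the 5 pan-endothelial markers to 6364.32 to 6819.9 and 7065.41 to 8431.55 CPM; their part in the member differences was not tested. The arterial count was 0 without Control 2, AML 2 or AML 3, 2 with DESeq2, and 1 with the doublets kept or with clusters built from all genes. All genes called lower were 29 of 6774, 2 of 6748 and 2 of 6807 without these libraries. They were 31 of 6353 with DESeq2, 9 of 5779 with doublets kept and 31 of 6209 with those clusters.

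In venous cells 2 of 26 tested members were called lower (0.382% of all genes), 25 were below 0, and the median log2 change was -0.74. In 10 of them the AML values lay below all Control values (10.0% of all genes). Without the low-count filter 28 of 30 members were below 0 (52.8% of all genes). Ifi44 had 34.5, 51.6 and 53.7 CPM against 14.3, 3.81 and 2.86 CPM and fell 6.17-fold (log2 change -2.63 ± 0.43 SE, edgeR adjusted p = 0.025). The values of AML 2 and AML 3 rest on few UMIs, so this fold is uncertain as well. Stat2 (chr10:128270559-128292849, plus strand) had 37.6, 55.0 and 54.4 CPM against 22.2, 19.04 and 17.2 CPM and fell by 1.33 on the log2 scale (± 0.26 SE, edgeR adjusted p = 0.0378). Neither gene overlapped between the groups. Zbp1, a sensor of nucleic acids in the Z form, overlapped at 9.97, 25.5 and 22.6 CPM against 7.94, 17.1 and 2.15 CPM (edgeR adjusted p = 0.312). The class's own 7 venous markers summed to 5893.49 to 7273.93 CPM in the 3 Controls against 7353.46 to 8845.93 CPM in the AML libraries. The 8 adventitial fibroblast markers summed to 47.4 to 51.86 and 3.46 to 19.45 CPM, the 8 alveolar fibroblast markers to 68.59 to 114.09 and 29.99 to 64.99 CPM, and the 8 alveolar type 1 markers to 582.8 to 765.93 and 820.86 to 998.22 CPM. The groups were apart in each of these sums, whose part in the venous values was not tested. The venous count was 0 without any 1 of the Controls or without AML 3, 7 without AML 1 and 1 with the replicate number as a block. All genes called lower were 202 of 9273 without AML 1 and 55 of 8890 with the block. They were 0, 12 and 0 without Control 1, 2 and 3 and 0 without AML 3.

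Aerocytes had lower values without a call. None of 23 tested members passed (edgeR, 2.18% of all genes called lower; 8 members at an unadjusted p below 0.05; 3 called without the low-count filter), 19 were below 0 and the median log2 change was -0.41. Of all genes, 1396 of 8973 had an unadjusted p below 0.05. Without the filter 25 of 30 members were below 0, and 398 of 15889 genes were called lower. In 8 members the 3 AML values lay below the 3 Control values, which 12.3% of all genes did. Herc6 had 73.2, 45.6 and 48.9 CPM against 32.5, 31.6 and 26.4 CPM (edgeR adjusted p = 0.0602). Eif2ak2, the kinase that stops translation on double-stranded RNA, had 41.2, 41.4 and 30.3 CPM against 18.05, 23.7 and 22.6 CPM (edgeR adjusted p = 0.0818). Ifi44 had 19.5, 23.2 and 20.8 CPM against 13.7, 14.5 and 8.30 CPM (edgeR adjusted p = 0.163). These 3 genes were apart between the groups without a call. Cluster 10 held 73.27% of the Control aerocytes and cluster 7 held 92.67% of the AML aerocytes, so these values compare cells of different clusters. Without Control 1 the count was 3 (237 of 8994 genes called lower), and without Control 2 it was 1 (225 of 9096).

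In pericytes, the contractile cells around capillaries, 15 of 15 tested members were below 0 with a median log2 change of -0.62, and in 5 the AML values lay below all Control values (7.66% of all genes). None passed (edgeR, 0.0189% of all genes called lower; 7 members at an unadjusted p below 0.05; 1 without the low-count filter), and 4 passed without AML 1. Of all genes, 446 of 5284 had an unadjusted p below 0.05, and 161 of 5341 were called lower without AML 1. The filter can be passed on the Controls alone. Without it 28 of 30 members were below 0 (51.4% of all genes), and 46 of 14755 genes were called lower. Rtp4 had 41.4, 101 and 95.8 CPM against 30.9, 24.4 and 23.0 CPM (edgeR adjusted p = 0.268). Oasl2 had 45.2, 46.6 and 60.7 CPM against 24.3, 0 and 13.8 CPM, and Herc6 had 79.0, 51.2 and 41.5 CPM against 26.5, 24.4 and 9.21 CPM (edgeR adjusted p = 0.380 for each). All 3 were apart without a call. The pericyte class carried much capillary RNA: the 8 general capillary markers summed to 4456.97 to 6004.44 CPM in the 3 Controls against 1927.47 to 7133.3 CPM in the AML libraries. Their part in the pericyte values was not tested.

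The remaining classes gave no member that passed (edgeR). Of 11 members tested in alveolar fibroblasts 10 were below 0 (median log2 change -0.38; 2.37% of all genes called lower; 2 members at an unadjusted p below 0.05; 1 called without the low-count filter). Of all genes, 1055 of 6292 had an unadjusted p below 0.05, a share near that of the members. Without the filter 19 of 27 members were below 0, and 357 of 16011 genes were called lower. Stat2 had 69.5, 31.3 and 24.0 CPM against 28.2, 17.9 and 23.5 CPM there, Eif2ak2 33.6, 31.3 and 21.6 against 25.8, 15.9 and 11.7 CPM, and Xaf1 82.9, 59.8 and 62.3 against 56.3, 32.8 and 36.3 CPM. Of all 11, only Xaf1 had its AML values below every Control value (11.3% of all genes). Endothelial markers were lower there as well: the 8 general capillary markers summed to 981, 135 and 259 CPM in Control 1, 2 and 3 against 91.0, 93.3 and 62.8 CPM in AML 1, 2 and 3, and the 5 pan-endothelial markers to 718, 96.2 and 363 against 43.2, 74.3 and 46.8 CPM. Their part in the member values was not tested. In alveolar type 2 cells 11 of 15 were below 0 (median -0.15; 2.27% of all genes; 0 members at an unadjusted p below 0.05). Of all genes, 2026 of 9911 had such a p. The members with the largest change in that class were Dtx3l, a ubiquitin ligase (11.2, 8.36 and 16.9 against 10.3, 8.36 and 5.93 CPM), Herc6 (9.93, 8.07 and 8.44 against 8.60, 5.57 and 5.15 CPM) and Parp9, the partner of Dtx3l (13.7, 11.5 and 12.8 against 12.03, 10.7 and 6.44 CPM). The groups overlapped in all 3, and in none of the 15 did all AML values lie below the Control values (12.6% of all genes).

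In ciliated cells 4 of 8 tested members were below 0 and 4 above (median -0.09; 0.352% of all genes called lower; 2 members at an unadjusted p below 0.05; 1 called without AML 1). Of all genes, 627 of 6823 had such a p, and 93 of 7605 were called lower without AML 1. Bst2 had 42.2, 30.4 and 28.7 CPM against 19.6, 17.9 and 7.10 CPM, apart but not called (edgeR adjusted p = 0.269). Samd9l, an antiviral factor, had 33.4, 36.9 and 67.5 against 39.2, 17.9 and 9.46 CPM, and Eif2ak2 49.2, 19.5 and 34.8 against 53.9, 31.3 and 47.3 CPM. Both overlapped, and Bst2 was the only member of this class with no overlap (7.12% of all genes). Of 5163 genes tested in smooth muscle cells, 559 had an unadjusted p below 0.05 (0.678% were called lower). Only 3 members were above the filter there, 0 of them at such a p. These were Bst2 (79.6, 113 and 116 against 107, 48.7 and 50.2 CPM), Ifi35 (29.3, 58.3 and 25.3 against 61.4, 68.2 and 47.7 CPM) and Samd9l (44.0, 47.7 and 28.9 against 53.7, 43.8 and 45.1 CPM), and all 3 overlapped (8.87% of all genes had AML values below all Control values). In alveolar duct myofibroblasts Bst2 alone was above the filter (0.704% of all genes called lower; unadjusted count 0), at 136, 49.8 and 64.7 against 145, 12.5 and 38.7 CPM, which overlapped (9.65% of all genes did not, on the low side). Its log2 change of -0.34 turned to 0.23 without Control 1 and 0.12 without AML 2. In the same class 547 of 3691 genes had an unadjusted p below 0.05.

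**Figure D3:**
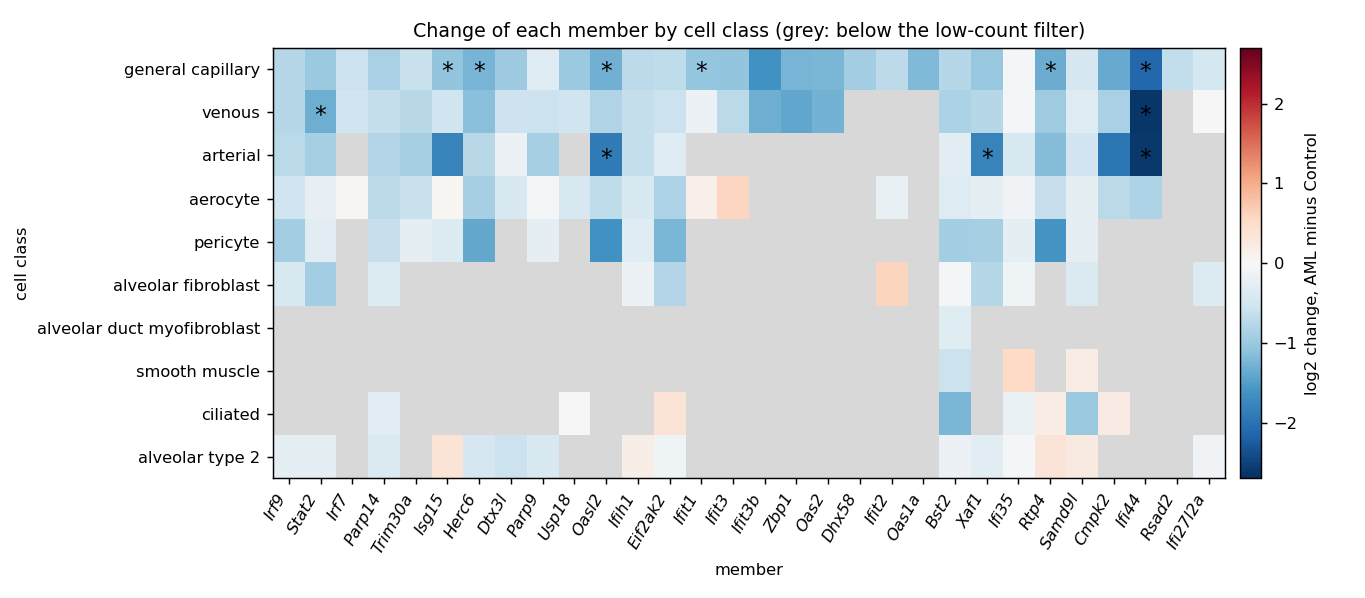
Heat map of the log2 change, AML minus Control (colour scale, blue for lower in AML and red for higher), of each member (x axis, ordered by role) in each cell class (y axis); asterisks mark an edgeR adjusted p under 0.05 and grey cells members below the low-count filter. Asterisks occur in general capillary, venous and arterial cells, and Ifi44 is marked in all 3; class medians run from -0.98 in general capillary cells to 0.20 in smooth muscle cells.

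A call in 1 class and none in another does not show a difference, so the AML effect in general capillary cells was set against that in each other class in 1 edgeR fit with a term per library. Against aerocytes 3 of 30 members had a lower AML effect in general capillary cells (0.641% of all genes): Ifi44, Ifit1 and Bst2. Ifit1 in aerocytes had 7.04, 20.7 and 15.2 CPM in the 3 Controls against 18.05, 17.1 and 13.6 CPM in the AML libraries, where the groups overlapped, and the difference of its effects was -1.20 ± 0.28 SE (edgeR adjusted p = 0.0256). Isg15 in aerocytes, at 17.9, 36.2 and 42.7 CPM against 26.0, 44.8 and 33.2 CPM, overlapped as well. The difference for Ifi44 was -1.29 ± 0.31 SE (edgeR adjusted p = 0.0275). With 1 library left out, the call was kept in 2 of 6 fits for Ifi44 and in 1 of 6 each for Ifit1 and Bst2. Leaving out any 1 of the 6 libraries gave 0 to 7 members, with 0 without Control 3, AML 2 or AML 3 and 7 without AML 1. All genes called lower were 31 of 11680, 78 of 11638, 17 of 11656 and 133 of 11668, in that order.

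Against ciliated cells the difference passed for 3 members (0.541% of all genes), which were Cmpk2, Rtp4 and Usp18. Cmpk2 had 36.9, 34.7 and 38.9 CPM in ciliated cells of the Controls and 46.5, 31.3 and 47.3 CPM in those of the AML libraries, and overlapped. Its difference of -1.64 ± 0.38 SE (edgeR adjusted p = 0.00969) was kept in 5 of 6 fits that left out 1 library and lost without AML 3. Rtp4 differed by -1.54 ± 0.36 SE (edgeR adjusted p = 0.0118) and was kept in 4 of 6. Usp18, at its highest level in ciliated cells, differed by -1.02 ± 0.27 SE (edgeR adjusted p = 0.0386) and was kept in 3 of 6. Against alveolar type 2 cells the difference passed for Ifih1 alone (1.10% of all genes), at -0.91 ± 0.21 SE (edgeR adjusted p = 0.0288). It was lost in 5 of 6 such fits and kept without AML 1. Against arterial, venous, pericyte, alveolar fibroblast, alveolar duct myofibroblast and smooth muscle cells, 0 members passed (edgeR; 4, 0, 0, 7, 1 and 2 at an unadjusted p below 0.05, in that order). All genes called lower there were 0.482%, 0.170%, 0.0256%, 0.922%, 0.369% and 0.202%.

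Single cells were then read for a strong response, set as at least 5 different members with a UMI after each cell was thinned to 2000 UMIs. In general capillary cells the share was 18.02% (118 of 655 cells, 95% exact binomial interval 15.1 to 21.2%), 20.5% (311 of 1519, 18.5 to 22.6%) and 17.8% (215 of 1209, 15.7 to 20.1%) in Control 1, 2 and 3. It was 11.7% (211 of 1809, 10.2 to 13.2%), 2.15% (37 of 1718, 1.52 to 2.96%) and 4.14% (72 of 1739, 3.25 to 5.19%) in AML 1, 2 and 3. All AML libraries were below all Controls, with AML 1 between AML 3 and the Controls. The means were 18.8% ± 1.49 and 5.99% ± 5.02 (SD, n = 3 each; exact two-sided permutation p = 0.1, the smallest that 3 against 3 libraries allow). The intervals cover counting error only.

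Thinning matters, since unthinned shares were 78.3%, 62.0% and 54.6% against 33.8%, 15.7% and 12.2%. It left out 21, 55 and 50 cells under 2000 UMIs in the 3 Controls against 129, 185 and 489 in the AML libraries. Near the limit, 70, 189 and 165 Control cells and 163, 69 and 99 AML cells had exactly 4 members, and 43, 114 and 93 against 78, 18 and 30 had exactly 5. Cells with no member UMI made up 7.94%, 4.21% and 5.21% of the Controls and 8.68%, 23.7% and 19.5% of AML 1, 2 and 3. AML 1 was thus close to the Controls at the low end.

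Within the strongly responding cells the load lay in a narrow range: 8.70, 9.31 and 9.69 member UMIs per thinned cell in the 3 Controls and 8.99, 9.08 and 8.86 in AML 1, 2 and 3. The rule that picks these cells sets a floor under that load. The other cells held 2.49, 2.99 and 3.07 against 2.43, 1.54 and 1.76 member UMIs, so AML 2 and AML 3 were low there too, and AML 1 was not far below Control 1. Strongly responding cells carried 43.4%, 44.5% and 40.6% of all member UMIs in the 3 Controls against 32.8%, 11.5% and 17.9% in the AML libraries. Within cluster 0 alone they were 18.3%, 20.9% and 18.1% of cells against 14.4%, 8.33% and 7.27%, and the groups were apart there also. As said above, cluster 0 may be set in part by interferon-induced genes. In cluster 2 they were 14.9% and 8.33% in Control 2 and 3 against 9.30%, 3.39% and 3.98%, and Control 3 lay below AML 1.

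**Figure D4:**
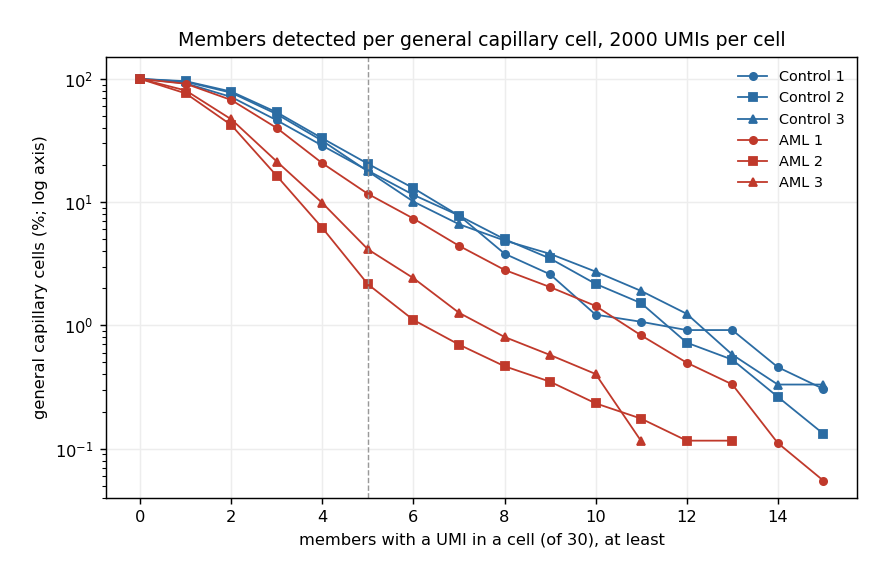
Share of general capillary cells (y axis, percent, log scale) with UMIs of at least the number of members on the x axis, after thinning to 2000 UMIs; each line is 1 library, points at 0% are not drawn, and the dashed line marks the limit of 5. From 1 member upward the lines of AML 2 and AML 3 run lowest, and at 5 members AML 1 (11.7%) lies between them and the Controls (17.8 to 20.5%).

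Members differed in how many cells they were seen in. Bst2 had a UMI in 55.9%, 69.4% and 70.7% of thinned general capillary cells of the Controls and 58.4%, 39.0% and 47.2% of those of AML 1, 2 and 3. Isg15 was seen in 11.3%, 12.4% and 11.2% against 7.57%, 4.25% and 5.18% of cells, and Ifi44 in 5.50%, 5.201% and 6.12% against 2.05%, 0.64% and 1.09%. AML 2 was the lowest library in all 3.

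Other vessel classes held strongly responding cells as well. In aerocytes they were 15.2%, 18.01% and 11.9% of cells in the 3 Controls against 11.6%, 7.63% and 4.71% in the AML libraries. In arterial cells they were 9.38%, 15.6% and 8.06% against 3.90%, 0% and 3.03%. In pericytes they were 9.09%, 13.04% and 9.30% against 8.45%, 0% and 0%. The groups were apart in each of these 3 classes (exact two-sided permutation p = 0.1, the smallest possible), by a narrow margin in aerocytes and pericytes, and this depended on the limits. At 4 or more members the groups overlapped in all 3 classes (exact permutation p = 0.2, 0.2 and 0.3 in aerocytes, arterial cells and pericytes). They also overlapped in aerocytes at 7 or more members (exact permutation p = 0.4) and in arterial cells at 1000 UMIs (exact permutation p = 1.0). In pericytes they overlapped without Ifi27l2a and Bst2 (exact permutation p = 0.3) and with clusters from all variable genes (exact permutation p = 0.2). In general capillary cells the groups were apart at each of these settings. Venous cells had 9.09%, 27.2% and 19.02% against 11.1%, 4.49% and 2.13%, where Control 1 lay below AML 1 (exact two-sided permutation p = 0.2). This also depended on the limits. The venous groups were apart at 1000 UMIs, at 3000 UMIs and with doublets kept (exact permutation p = 0.1 for each). They overlapped at 4 or more and 7 or more members and with clusters from all variable genes (exact permutation p = 0.2 for each). Without Ifi27l2a and Bst2 they overlapped as well (exact permutation p = 0.3).

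Strongly responding cells were rare or not seen in epithelial cells. In alveolar type 2 cells the thinned share was 0 in every library, which allows shares of up to 0.88% (AML 3, 341 cells) to 2.86% (Control 1, 105 cells) by the counts. Unthinned shares there were 35.2%, 24.1% and 17.6% in the 3 Controls against 13.5%, 9.09% and 2.90% in the AML libraries. These cells were deeper than general capillary cells before thinning, with a median of 11934 to 28071 against 3026 to 9571 UMIs per cell. The leukaemia-like cells, at a median of 20967 to 31018 UMIs per cell, had 0.393%, 0% and 0.104% in AML 1, 2 and 3 after thinning and 71.8%, 61.5% and 45.5% before it. The shares in ciliated cells, smooth muscle cells, alveolar fibroblasts and alveolar duct myofibroblasts overlapped between the groups.

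**Figure D5:**
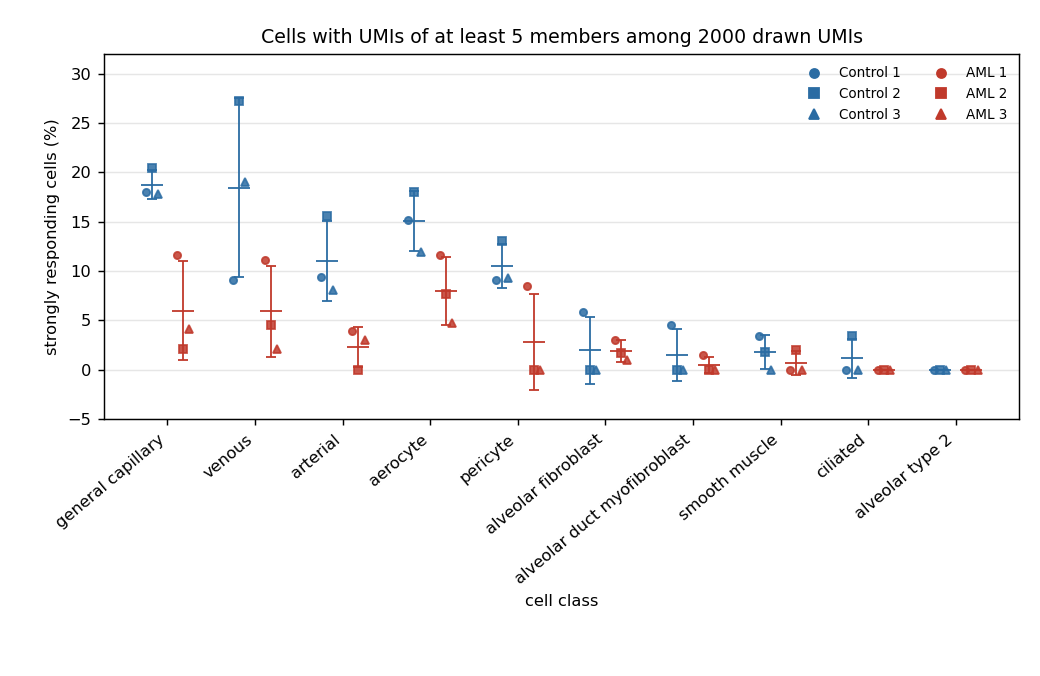
Share of strongly responding cells in percent (y axis) by cell class (x axis); each point is 1 library, and bars show the mean and SD of 3 libraries. General capillary, arterial, aerocyte and pericyte cells have every AML point below every Control point, while venous cells overlap and alveolar type 2 cells are at 0.

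Other genes of the pathway were read from a list, of which 85 measured genes are reported. In general capillary cells 58 were tested, 41 were below 0 (median log2 change -0.33), 4 fell and none rose, where 1.38% of all genes were called lower and 49.9% were below 0. Another 17 were above 0, and the log2 changes ran from -1.83 to 2.74. In 20 the 3 AML values lay below the 3 Control values and in 6 above them (1738 and 1687 of 11417 genes). Ifi203, a DNA-binding protein of the Ifi200 family, had 154, 143 and 146 CPM against 68.9, 23.8 and 31.5 CPM and fell by 1.83 on the log2 scale (± 0.33 SE, edgeR adjusted p = 0.0346). Its AML values lay apart from the Controls, with AML 1 the highest of the 3. Ifi213 (44.5, 43.5 and 40.6 against 19.8, 9.59 and 10.7 CPM), Phf11d (53.4, 74.1 and 68.2 against 36.0, 16.7 and 15.2 CPM) and the nuclear body gene Sp100 (130, 119 and 118 against 80.5, 48.8 and 51.2 CPM) were the other 3.

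Neither receptor chain passed. Ifnar1 had 61.4, 55.0 and 59.5 CPM against 46.8, 55.0 and 43.6 CPM in general capillary cells, and Ifnar2 had 128, 152 and 143 against 123, 128 and 115 CPM (edgeR adjusted p = 0.330 and 0.469). Their log2 changes were -0.27 ± 0.16 SE and -0.21 ± 0.16 SE. All 11 listed ligand genes were below the filter in this class, so whether interferon transcripts differed was not detectable at this depth.

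In aerocytes, where no member passed, 3 of 51 tested pathway genes fell (2.18% of all genes called lower): Ifi203, Ifi213 and Phf11d. Ifi203 had 229, 221 and 251 CPM against 111, 64.5 and 82.2 CPM, Ifi213 42.3, 56.5 and 46.6 against 31.04, 26.3 and 18.1 CPM, and Phf11d 56.4, 82.9 and 76.4 against 43.3, 29.0 and 28.7 CPM. All 3 were apart between the groups. In venous cells Phf11d fell (55.2, 75.7 and 65.0 against 30.9, 22.8 and 17.9 CPM; edgeR adjusted p = 0.033). Ly6e, a surface protein induced by interferon, fell in alveolar fibroblasts (285, 174 and 204 against 51.6, 70.7 and 72.6 CPM; edgeR adjusted p = 0.000894) and in alveolar duct myofibroblasts (312, 77.4 and 135 against 55.1, 18.7 and 34.4 CPM; edgeR adjusted p = 0.0383). In both classes the order of Ly6e among the 3 Controls was that of the pan-endothelial markers, which in the myofibroblasts summed to 1220, 67.2 and 422 CPM against 71.1, 25.5 and 39.4 CPM; their part in Ly6e was not tested. In alveolar type 2 cells Slfn5 fell from a low level (17.1, 7.21 and 3.38 against 1.03, 0.40 and 1.29 CPM; edgeR adjusted p = 0.0137). No listed pathway gene passed in arterial, pericyte, ciliated or smooth muscle cells (edgeR; 6, 6, 0 and 1 at an unadjusted p below 0.05, in that order). Of all genes, 808 of 6354, 446 of 5284, 627 of 6823 and 559 of 5163 had such a p.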

How the data were processed

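The authors deposited unscaled UMI counts for each gene in each barcode, made with Cell Ranger on mm10. The version is open: 6.0.1 per the file headers, 7.0.0 per the submitters' processing notes. Strand use in counting is not given in the sources used here.

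Of 28516 barcodes, 3415 with fewer than 500 genes and 461 with more than 15% mitochondrial UMIs were left out. Scrublet's top-scored cells, 0.8% per 1000 cells, were removed as doublets (895, or 3.632%), which left 23745. Its automatic threshold called 226 cells. Cells were clustered with scanpy 1.11.5 (2000 variable genes without 116 member and pathway genes, 30 components, 15 neighbours, Leiden resolution 1.0, seed 7; Python 3.11.15). Clusters were named from marker lists, with at least 3 markers detected. Classes with at least 20 cells in each library were tested; blood cells were not.

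UMIs were summed per library and class and tested with edgeR 4.0.16 (quasi-likelihood, robust, TMM, filterByExpr; R 4.3.3), AML minus Control, Benjamini-Hochberg adjusted over the class's genes at 0.05. Levels in sentences with a test are TMM-scaled CPM; summed levels, marker sums and levels compared across classes are unscaled. The median log2 change of all genes lay between -0.008 and 0.023. On simulated counts for general capillary cells (11417 genes), 99% of 4-fold and 49% of 2-fold changes were called, with 7 false calls. Of 2-fold changes, 27% were called in smooth muscle, 28% in pericytes and 34% in arterial cells, and up to 71% in alveolar type 2 cells. All genes of a class shared 1 simulated spread, unlike the data, so these shares are a rough guide. Shares were compared with exact permutation tests (scipy 1.17.1). DESeq2 1.42.0, other scaling, filters, clusterings, limits and left-out libraries were tried. Coordinates are from GENCODE M21 (mm10); promoter sequences are from RefSeq.

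Every member is counted, but Dhx58, Ifit2, Oas2 and Rsad2 are not named elsewhere. All of these were tested in general capillary cells and did not pass. Named with each library's values are those past the threshold in a class, the 5 highest in general capillary cells and the 3 with the largest change per class; others were added for their role after their values were seen. The members and lists were chosen with earlier results of these data known. A gene of the pathway list is not reported here.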

Additional observations from a re-analysis of the deposited data

Results flagged for a closer look

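In 7 pairs of a member and a class the AML effect in general capillary cells differed from that in another class by a test of the difference itself (edgeR, adjusted over all genes). The differences on the log2 scale were -1.29 for Ifi44, -0.49 for Bst2 and -1.2 for Ifit1 against aerocytes, -0.91 for Ifih1 against alveolar type 2 cells, and -1.02 for Usp18, -1.64 for Cmpk2 and -1.54 for Rtp4 against ciliated cells. Bst2 had 354, 636 and 644 CPM in aerocytes of Control 1, 2 and 3 and 490, 395 and 401 CPM in those of AML 1, 2 and 3 (difference ± 0.13 SE, edgeR adjusted p = 0.043). Ifih1 had 15.2, 13.8 and 17.9 against 21.0, 17.5 and 14.2 CPM in alveolar type 2 cells. Rtp4 had 38.7, 45.6 and 32.7 against 44.1, 71.6 and 28.4 CPM and Usp18 139, 130 and 166 against 196, 84.97 and 142 CPM in ciliated cells. The groups overlapped in each of these.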

How the results depend on the processing

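With the replicate number as a block, general capillary cells gave 8 members (2.0% of all genes), arterial cells 3 (69 of 6354 genes) and venous cells 1 (55 of 8890). Same-numbered libraries did not deviate together (r = -0.029, -0.039 and 0.026 in general capillary cells), so the numbers were not taken as pairs. Counts of called members without a low-count filter were 14 in general capillary, 5 in arterial, 6 in venous and 3 in aerocyte cells and 1 each in alveolar fibroblasts and pericytes. All genes called lower were, in that order, 414 of 19234, 142 of 14589, 196 of 15828, 398 of 15889, 357 of 16011 and 46 of 14755. With doublets kept the counts of members were 4 in general capillary cells, 2 in venous cells and 1 each in arterial cells, alveolar fibroblasts and pericytes. All genes called lower were then 142 of 11484, 36 of 8937, 9 of 5779, 98 of 7135 and 35 of 5727, in that order. Clusters from all variable genes gave 8 in general capillary, 1 in arterial and 1 in venous cells. All genes called lower were then 130 of 11385, 31 of 6209 and 22 of 8734. DESeq2 gave 17 in general capillary, 2 in arterial and 2 in venous cells (457 of 11415, 31 of 6353 and 79 of 8884 genes). Cluster 0 alone, added after seeing the data, gave 1 (66 of 10842 genes). The cause was not tested. Leaving out 1 library at a time gave 0 to 23 members in general capillary, 0 to 4 in arterial, 0 to 7 in venous, 0 to 3 in aerocyte, 0 to 4 in pericyte and 0 to 1 in ciliated cells. All genes called lower ran from 0 to 668, 2 to 80, 0 to 202, 29 to 237, 0 to 161 and 12 to 93, in that order. For the difference from general capillary cells the ranges were 0 to 7 (aerocyte), 0 to 5 (ciliated), 0 to 4 (alveolar type 2), 0 to 2 (alveolar fibroblast) and 0 to 1 each in arterial, venous and smooth muscle cells. All genes called lower were 17 to 133 (aerocyte), 23 to 116 (ciliated), 10 to 399 (alveolar type 2) and 57 to 176 (alveolar fibroblast). In arterial, venous and smooth muscle cells they were 17 to 106, 1 to 39 and 9 to 54. The share of strongly responding cells, in percentage points, turned from -1.032 to 0.483 in alveolar duct myofibroblasts without Control 1 (range -1.79 to 0.483). In alveolar fibroblasts it turned from -0.059 to 1.901 without Control 1, 0.044 without AML 2 and 0.417 without AML 3 (range -1.04 to 1.901). In smooth muscle it turned from -1.075 to 0.68 at 7 or more members, 0.556 at 1000 UMIs and 0.074 without Ifi27l2a and Bst2. Ifi35 in general capillary cells turned to 0.02 in cluster 0 alone and 0.05 without Control 2 or Control 3 (range -0.23 to 0.05), and Bst2 in alveolar duct myofibroblasts to 0.23 without Control 1 and 0.12 without AML 2 (range -1.58 to 0.23). The cause was not tested. No share could be had at 3000 UMIs in myofibroblasts and pericytes, or in pericytes with doublets kept. Depth limits what could be tested: 7 of 30 members were below the filter in aerocytes and 29 in alveolar duct myofibroblasts.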

Other observations

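Several classes had too few cells for a test and are given as values. Mesothelial cells, which line the lung surface, had strongly responding shares of 11.1%, 14.3% and 0% in Control 1, 2 and 3 (9, 7 and 5 cells) and 45.5%, 38.9% and 18.2% in AML 1, 2 and 3 (22, 18 and 11 cells). Monocytes or macrophages had 40%, 25% and 11.8% (10, 16 and 17 cells) against 2.22%, 0% and 0% (45, 19 and 23 cells). These shares rest on few cells, and the 20% mixing of blood cells touches the second.

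When the members were allowed into the variable genes, 1 cluster of 985 cells was led by Ifit1, Iigp1, Isg15, Gbp4 and Ifit3. It held 44.1%, 32.3% and 30.9% of the general capillary cells of Control 1, 2 and 3 and 4.44%, 0.46% and 0.59% of those of AML 1, 2 and 3. The class had 345, 1370 and 900 against 2004, 1942 and 2379 cells in that clustering. An unnamed cluster led by Esm1, with general capillary as best match, lay outside the class. Its 399, 462 and 523 Control cells against 85, 2 and 27 AML cells are not in these totals, which makes the Control shares larger. The members took part in that clustering, so these shares are a description and carry no test. Next to Ifit1, Isg15 and Ifit3 its top genes held the guanylate-binding protein genes Gbp4, Gbp7, Gbp6 and Gbp2 and the GTPase genes Iigp1 and Igtp, families also induced by interferon gamma.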
